A study of Mus musculus with 3 samples.

Results

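The genes described here are 8 genes of the major histocompatibility complex (MHC) and antigen presentation. *H2-K1*, *H2-D1* and *B2m* make the class I molecule, *H2-Aa*, *H2-Ab1*, *H2-Eb1* and *Cd74* belong to class II, and *Ciita* encodes the class II transactivator. They were chosen by name, not by a measured value, though with earlier results of these data known. They are 8 of the 21646 protein-coding genes on chromosomes 1 to 19 and X. The cells were long-term hematopoietic stem cells (HSCs) of wild-type female C57BL/6 mice (C57BL/6J in the study's methods), 8 weeks old, sorted from c-Kit-enriched bone marrow as LSK CD48- CD150+ CD34-. They were profiled by DOGMA-seq, which reads RNA, open chromatin by ATAC and the tags of bound antibodies from the same single cells. There was 1 preparation with 1 library of each kind, so no value below has a replicate and no test between groups was made. The sources used here do not say whether animals were pooled.

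Class I molecules present peptides from inside the cell to CD8 T cells and are made by nearly all nucleated cells. Each consists of a heavy chain, such as the products of *H2-K1* and *H2-D1*, and the light chain β2-microglobulin, the product of *B2m*. Class II molecules present peptides taken up from outside to CD4 T cells and are best known from dendritic cells, B cells and macrophages. *H2-Aa* and *H2-Ab1* encode the α and β chains of I-A, *H2-Eb1* encodes the β chain of I-E, and *Cd74* encodes the invariant chain, which guides class II molecules to the compartment where peptides are loaded. C57BL/6 mice make no I-E on the cell surface because their I-E α gene is defective. The RFX complex, CREB and NF-Y bind the X and Y boxes of class II promoters and recruit the product of *Ciita*, the master regulator of class II transcription, which does not bind DNA itself.

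An ATAC fragment is a piece of DNA between 2 cuts of the transposase, which cuts open chromatin most. The library held 42000180 unique fragments, of which 38470179 lay in the 3757 barcodes called as cells. Cells with more than 3000 fragments in peaks were used, which left 3108 cells with a median of 11457 fragments (range 3977 to 194399) and 37137164 fragments on chromosomes 1 to 19 and X. A promoter was the 500 bp on either side of the start of the principal transcript in GENCODE vM21 (GRCm38, mm10), and a fragment was counted there when its midpoint fell inside. Densities are fragments per kb per M, where M stands for 1000000 fragments of these cells, and intervals are exact 95% Poisson or binomial intervals that cover counting error only. The genome mean was 0.391 fragments per kb per M, and a promoter or a 500-bp bin was called open at 5 times this mean or more, which is 72.6 fragments in a promoter and 36.3 in a bin. By this rule 60.5% of all protein-coding promoters were open, and 7 of the 8 genes had an open promoter, the exception being *Ciita*.

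The class I genes had the most open promoters of the 8. *H2-K1* on chromosome 17 (chr17:33996017-34000347, minus strand), one of the classical heavy chain genes, had 2627 promoter fragments, or 70.7 per kb per M (68.1-73.5). Its promoter was more open than 95.1% of all protein-coding promoters, and 1646 cells (53.0%, interval 51.2-54.7%) had at least 1 fragment there. *H2-D1* (chr17:35262730-35267499, plus strand), the other classical heavy chain gene, had 1741 promoter fragments, or 46.9 per kb per M (44.7-49.1), in 1243 cells (39.99%). *B2m* on chromosome 2 (chr2:122147686-122153083, plus strand) had 1632 promoter fragments, or 43.9 per kb per M (41.8-46.1), in 1197 cells (38.5%). The intervals of *H2-D1* and *B2m* overlapped, whereas *H2-K1* lay above both. The order of *H2-D1* and *B2m* depended on the window: with 250 bp on either side of the start *H2-K1* stood at 119 per kb per M, *B2m* at 77.8 (73.8-81.9) and *H2-D1* at 41.5 (38.6-44.6). The stretch of *H2-D1* with the most fragments, 200 to 399 bp downstream of this start, lay across or beyond the edge of that window. The heavy chain genes have close relatives within the MHC, and reads that fit several places are hard to assign: 94.7% of the 50-base words of the *H2-K1* promoter and 97.1% of those of *H2-D1* occur once in the genome, against 100% for *B2m*. In the gene bodies the shares were 82.9% and 85.1% for the heavy chain genes, and what this does to their counts there was not tested.

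**Figure D1:**
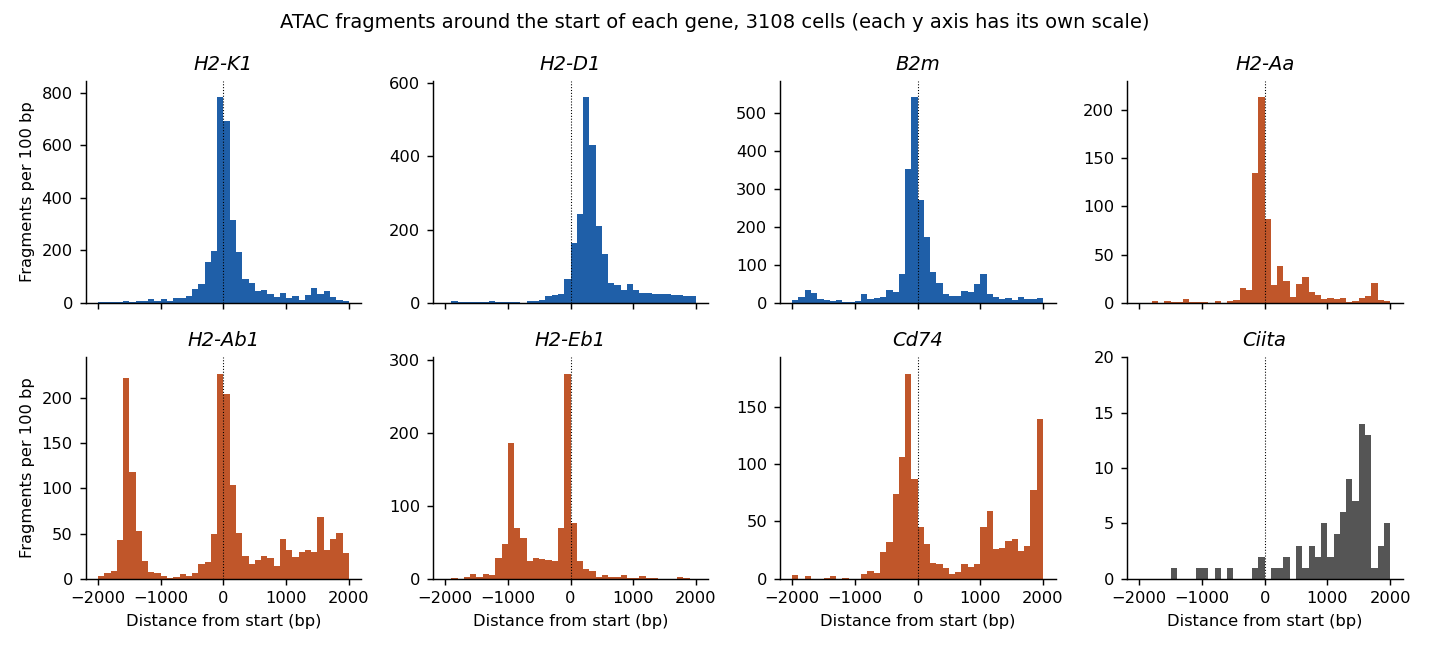
ATAC fragments per 100 bp (y axis, scaled for each gene) by distance from the start of the principal transcript in bp (x axis, dotted line at the start), summed over 3108 cells, for class I genes (blue), class II genes (orange) and *Ciita* (grey). The fragments of 7 genes pile up near their start, with the peak of *H2-D1* downstream of the annotated start, while *Ciita* has 7 fragments within 500 bp of its principal start.

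The profile around the starts showed where in the promoters the midpoints of the fragments fell. In *H2-K1* and *B2m* the 100-bp step with the most fragments lay directly upstream of the start. The peak of *H2-D1* lay to the 3′ side of the GENCODE start, and RefSeq places the start of this gene 364 bp further downstream. Counted around the RefSeq start, a choice made after the profile was seen, the *H2-D1* density was 52.3 per kb per M in place of 46.9, above the 43.9 of *B2m* (the intervals, 50.0-54.7 and 41.8-46.1, did not overlap).

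To show the sequence under these peaks, the 200 bases upstream of the start are given for *H2-K1* (chr17:34000348-34000547, minus strand) and *B2m* (chr2:122147486-122147685, plus strand), read 5′ to 3′ from GRCm38. Capitals mark matches on either strand to 5 short motifs: the Y box CCAAT, the X box core AGCAAC, the interferon-stimulated response element (ISRE) as GAAANNGAAA, the NF-κB motif GGGATTCCC and the TATA box TATAAA.
H2-K1: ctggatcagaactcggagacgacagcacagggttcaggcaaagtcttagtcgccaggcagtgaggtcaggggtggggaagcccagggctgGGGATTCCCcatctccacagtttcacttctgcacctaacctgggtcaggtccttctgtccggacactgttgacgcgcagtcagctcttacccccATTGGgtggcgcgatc
B2m: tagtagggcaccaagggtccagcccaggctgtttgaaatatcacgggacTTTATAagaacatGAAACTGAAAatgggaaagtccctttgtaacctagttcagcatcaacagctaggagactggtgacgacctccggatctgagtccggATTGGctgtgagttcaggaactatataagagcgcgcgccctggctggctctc
The *H2-K1* sequence held the NF-κB letters starting at position -110 from the start and the Y box, as its reverse complement ATTGG, at -16. Within 200 bases upstream of the starts of 21641 protein-coding genes, the NF-κB letters occurred in 0.25% and the Y box in 30.8%. The *B2m* sequence held the ISRE letters at -138, which 2.50% of all promoters had, a Y box at -52, and the TATA letters at -151 on the minus strand, found in 9.90%. Upstream of the GENCODE start of *H2-D1* none of the 5 motifs matched, whereas the 200 bases upstream of its RefSeq start held the NF-κB letters at -170, Y boxes at -76 and -53 and the TATA letters at -26. The letters of the NF-κB motif were therefore present upstream of both heavy chain genes when the RefSeq start was used for *H2-D1*. The motifs were chosen with earlier results of these data known, so their shares over all promoters do not measure how unexpected a match is. A match is a description of the letters and does not show that a factor bound.

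The 4 class II genes had open promoters too, at lower densities than any of the 3 class I genes. *H2-Ab1* (chr17:34257689-34269419, plus strand) had 718 promoter fragments, or 19.3 per kb per M (17.9-20.8), in 606 cells (19.5%, interval 18.1-20.9%). *Cd74* on chromosome 18 (chr18:60803848-60812652, plus strand) had 589 fragments, or 15.9 per kb per M (14.6-17.2), in 463 cells (14.9%). *H2-Eb1* (chr17:34305867-34316674, plus strand) had 555 fragments, or 14.9 per kb per M (13.7-16.2), in 479 cells (15.4%), and so had an open promoter in a strain without surface I-E. *H2-Aa* (chr17:34282744-34287823, minus strand), the partner of *H2-Ab1* in I-A, had 551 fragments, or 14.8 per kb per M (13.6-16.1), in 480 cells (15.4%). *H2-Ab1* lay above the other class II genes, but this order depended on the counting. In windows of 1000 bp on either side *H2-Eb1* had 12.6 and *H2-Ab1* 11.6, and with fragments under 150 bp alone *H2-Ab1* had 19.02, against 19.96 for *Cd74* and 20.5 for *H2-Aa* and *H2-Eb1*, with overlapping intervals in both cases. In the window of 250 bp *H2-Ab1* had 33.1, below the 41.5 of *H2-D1*, whose peak lay partly outside that window. The intervals of *Cd74*, *H2-Eb1* and *H2-Aa* overlapped. All 4 exceeded the median of all protein-coding promoters, which was 5.87 per kb per M and a fragment in 6.15% of cells. They ranked between 65.0% and 69.9% of all promoters.

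**Figure D2:**
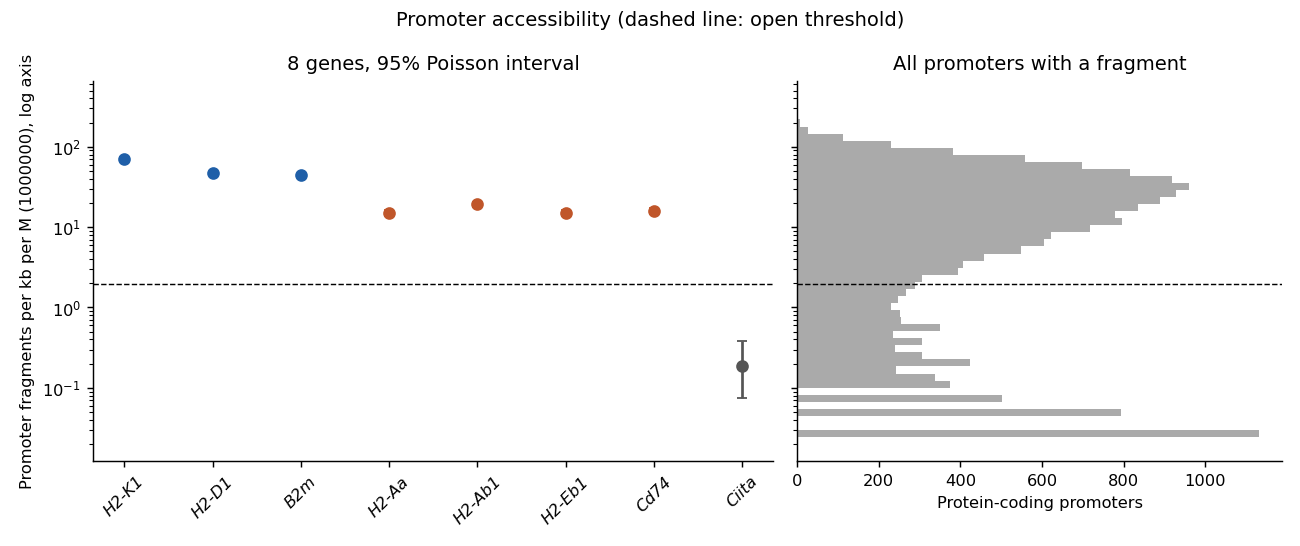
Left, promoter density in fragments per kb per M (log axis) with the 95% Poisson interval for class I genes (blue), class II genes (orange) and *Ciita* (grey). Right, the number of protein-coding promoters (x axis) at each density for all promoters with at least 1 fragment. The dashed line is the open threshold of 1.95. Class I genes lie between 43.9 and 70.7, class II genes between 14.8 and 19.3, and *Ciita* at 0.188.

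The class II promoters are shown by the 200 bases upstream of *H2-Aa* (chr17:34287824-34288023, minus strand), *H2-Ab1* (chr17:34263009-34263208, plus strand) and *H2-Eb1* (chr17:34305667-34305866, plus strand) in GRCm38, with the same motifs in capitals.
H2-Aa: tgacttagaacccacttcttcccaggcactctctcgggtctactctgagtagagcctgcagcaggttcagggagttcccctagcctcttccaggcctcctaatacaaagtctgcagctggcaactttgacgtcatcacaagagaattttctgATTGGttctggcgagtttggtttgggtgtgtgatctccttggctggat
H2-Ab1: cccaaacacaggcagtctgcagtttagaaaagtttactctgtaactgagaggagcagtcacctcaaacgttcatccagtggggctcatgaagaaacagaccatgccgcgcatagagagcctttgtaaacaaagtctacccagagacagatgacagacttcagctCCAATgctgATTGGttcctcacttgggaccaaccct
H2-Eb1: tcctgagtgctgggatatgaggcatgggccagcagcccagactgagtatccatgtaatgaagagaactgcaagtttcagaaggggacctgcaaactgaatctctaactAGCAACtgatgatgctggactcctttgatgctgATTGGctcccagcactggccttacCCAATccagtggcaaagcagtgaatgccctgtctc
Each of the 3 sequences held at least 1 Y box, the letters that NF-Y is known to bind. In *H2-Aa* it started at -48, in *H2-Ab1* at -36 and -27, and in *H2-Eb1* at -59 and -35. The X box core AGCAAC, found in 9.71% of all promoters, was present as these letters in *H2-Eb1* alone of the 3, at -92. The X box varies between genes, so a search for 6 fixed letters can miss it. No class II start had the ISRE or NF-κB letters in this stretch, and the stretch upstream of *Cd74* held none of the 5 motifs.

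Summed over genes, the mean promoter density was 53.9 per kb per M (52.5-55.2) for class I and 16.2 (15.6-16.9) for class II. The ratio was 3.32 (3.16-3.48), so the difference was larger than counting error. Both classes were seen in many cells. At least 1 class I promoter fragment was found in 2513 cells (80.9%, interval 79.4-82.2%), and at least 1 class II promoter fragment in 1568 cells (50.5%, interval 48.7-52.2%). All 3 class I promoters had a fragment in 287 cells (9.23%), and all 4 class II promoters in 5 cells (0.161%). A cell has few copies of each promoter, and a share of cells depends on how many fragments were read per cell. A fragment also does not show an open promoter in its cell, since promoters that were not open had fragments too, and no background was subtracted from these shares. From 1 summed density, few cells with a very open promoter and many cells with a less open one cannot be told apart.

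How the fragments were shared between cells was counted as well. The 31 cells (1% of the cells) with the most class II promoter fragments held 6.38% of them, and the corresponding 31 cells for class I held 4.23%, while the 31 deepest cells held 3.61% of all fragments. The most that 1 cell held was 6 class II and 23 class I promoter fragments. The cells were ranked by the same fragments that were then summed, so both class shares lie above 1% by construction. They cannot be compared between the classes, since class II had 2413 such fragments and class I 6000. With so few fragments per cell, these shares do not tell how open a promoter was in each cell. Each of the 6 pairs of class II promoters was covered together in somewhat more cells than the share over all cells would give. The same held for every pair of class I promoters and every pair across the classes, so it is not particular to class II. No test was made. Of the cells with an *H2-Aa* fragment, 20.2% had an *H2-Ab1* fragment, against 19.5% of all cells, and 17.5% had an *H2-Eb1* fragment, against 15.4%. Of the cells with a *Cd74* fragment, 21.4% had an *H2-Ab1* fragment and 17.5% an *H2-Eb1* fragment. Across the classes, 58.5% of these cells had an *H2-K1* fragment, against 53.0% of all cells. These values share the depth of the cell: cells with at least 2 class II promoters covered (389 cells, 12.5%) had a median of 12678 fragments, and cells with none had 10909.5.

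**Figure D3:**
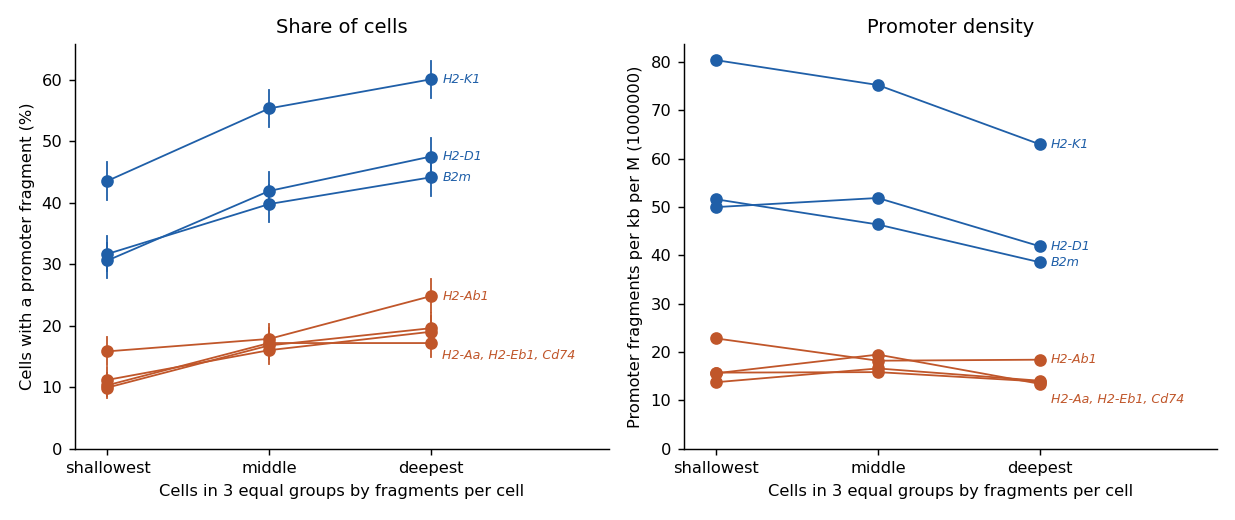
Share of cells with a promoter fragment in % with its 95% binomial interval (left) and promoter density in fragments per kb per M (right) for 7 genes in 3 groups of 1036 cells ordered by fragments per cell. The shares of class I (blue) and class II genes (orange) are higher in the deepest cells than in the shallowest, and the densities of the class I genes are lowest in the deepest cells.

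Depth moved the share of cells for both classes. In the 1036 shallowest cells, with a median of 8119 fragments, 73.1% had a class I promoter fragment and 40.2% a class II one. In the 1036 deepest cells, with a median of 14574.5, the shares were 86.4% and 58.2%. When each cell was thinned to 3000 fragments, 37.6% of cells (35.9-39.3%) had a class I and 16.9% (15.6-18.3%) a class II promoter fragment. The order of the classes was the same at each depth. The densities went the other way: class I had 60.6, 57.8 and 47.8 fragments per kb per M in the shallowest, middle and deepest cells, and class II had 16.99, 17.5 and 14.96. The density was also read by RNA content of the same cells. In the 1036 cells with the fewest RNA UMIs (median 2889) class I stood at 60.3 (57.7-63.0) and class II at 17.5 (16.3-18.8), and in the 1036 cells with the most (median 5154) at 49.6 (47.5-51.7) and 14.8 (13.8-15.8). The part that depth has in this was not tested.

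The length of the fragments differed between the promoters. Fragments under 150 bp, too short to span a nucleosome with its linkers, made up 66.7% of those at *H2-K1*, 66.5% at *H2-D1* and 64.7% at *B2m*. At *H2-Aa* they made up 63.7%, at *H2-Eb1* 63.2% and at *Cd74* 58.1%. At *H2-Ab1* the share was 45.4% (41.7-49.1%), below the other 6. Over all open promoters it was 60.5%, over promoters that were not open 27.9%, and over the whole genome 46.1%. The *H2-Ab1* promoter thus had the largest share of long fragments among the 7 open promoters, and its place above the other class II genes was lost when long fragments were left out.

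*Ciita* on chromosome 16 (chr16:10480059-10528418, plus strand) was the one gene of the 8 without an open promoter. Mouse *Ciita* is known to have several promoters that lie one after another: pI is used in myeloid and conventional dendritic cells, pIII in lymphoid cells and plasmacytoid dendritic cells, and pIV, the one farthest downstream, responds to interferon-γ. The annotation gave 4 groups of protein-coding starts. The first 2, at 10480059 and 10480164, overlapped in their windows and together had 9 fragments. The start of the principal transcript at 10488279 had 7 fragments, or 0.188 per kb per M (0.0758-0.388), in 6 cells (0.193%), none of them under 150 bp. This density was 0.482 times the genome mean. The start farthest downstream, at 10489746, had 65 fragments, or 1.75 per kb per M (1.35-2.23), in 59 cells (1.90%, interval 1.45-2.44%). It was thus higher than the other starts of *Ciita* by more than counting error, at 4.48 times the genome mean and just below the open threshold. In a narrower window of 250 bp on either side it passed the threshold, with 48 fragments and 6.62 times the genome mean. Of its 65 fragments 21 (32.3%) were under 150 bp. Barcodes not called as cells had 11 fragments there, or 3.12 per kb per M, which is no lower than in cells.

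The 2 starts that lie closest to each other among those that do not overlap, 10488279 and 10489746, are shown by their 200 upstream bases (chr16:10488079-10488278 and chr16:10489546-10489745, plus strand, GRCm38), with the same motifs in capitals.
Ciita start at 10488279: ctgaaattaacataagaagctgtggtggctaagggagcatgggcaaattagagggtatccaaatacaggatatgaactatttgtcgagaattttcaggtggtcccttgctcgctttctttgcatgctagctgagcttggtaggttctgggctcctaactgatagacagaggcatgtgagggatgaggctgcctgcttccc
Ciita start at 10489746: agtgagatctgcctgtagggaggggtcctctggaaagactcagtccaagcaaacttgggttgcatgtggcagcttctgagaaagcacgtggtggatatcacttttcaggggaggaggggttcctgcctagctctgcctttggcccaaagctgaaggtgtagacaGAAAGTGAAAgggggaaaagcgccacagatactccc
The downstream start had the ISRE letters at -36, which also stood upstream of *B2m* and in 2.50% of all promoters, and the start at 10488279 matched none of the 5 motifs. Upstream of the start at 10480059 the TATA letters were found at -177.

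Most fragments of the *Ciita* locus lay away from its starts. The start windows held 81 of the 1435 fragments in the gene and 10 kb on either side, or 5.64% (4.51-6.97%), on 4.54% of its length. Across 500-bp bins, 2.3% of those in the genome were open, and 10 of the 137 bins (7.30%) over *Ciita* were. The bin with the most fragments lay over exon 15, centered 32971 bp downstream of the principal start (chr16:10521001-10521500). It had 240 fragments, 33.1 times the genome mean, in 218 cells, and 70.4% of them were under 150 bp. A bin 2 kb further on (chr16:10523001-10523500, intron) had 98 fragments, and one over exon 18 (chr16:10525001-10525500) had 73. The nearest other start, that of *Dexi*, was 17804 to 21804 bp from these 3 bins. The bin at the downstream start, with 48 fragments, was open as well.

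**Figure D4:**
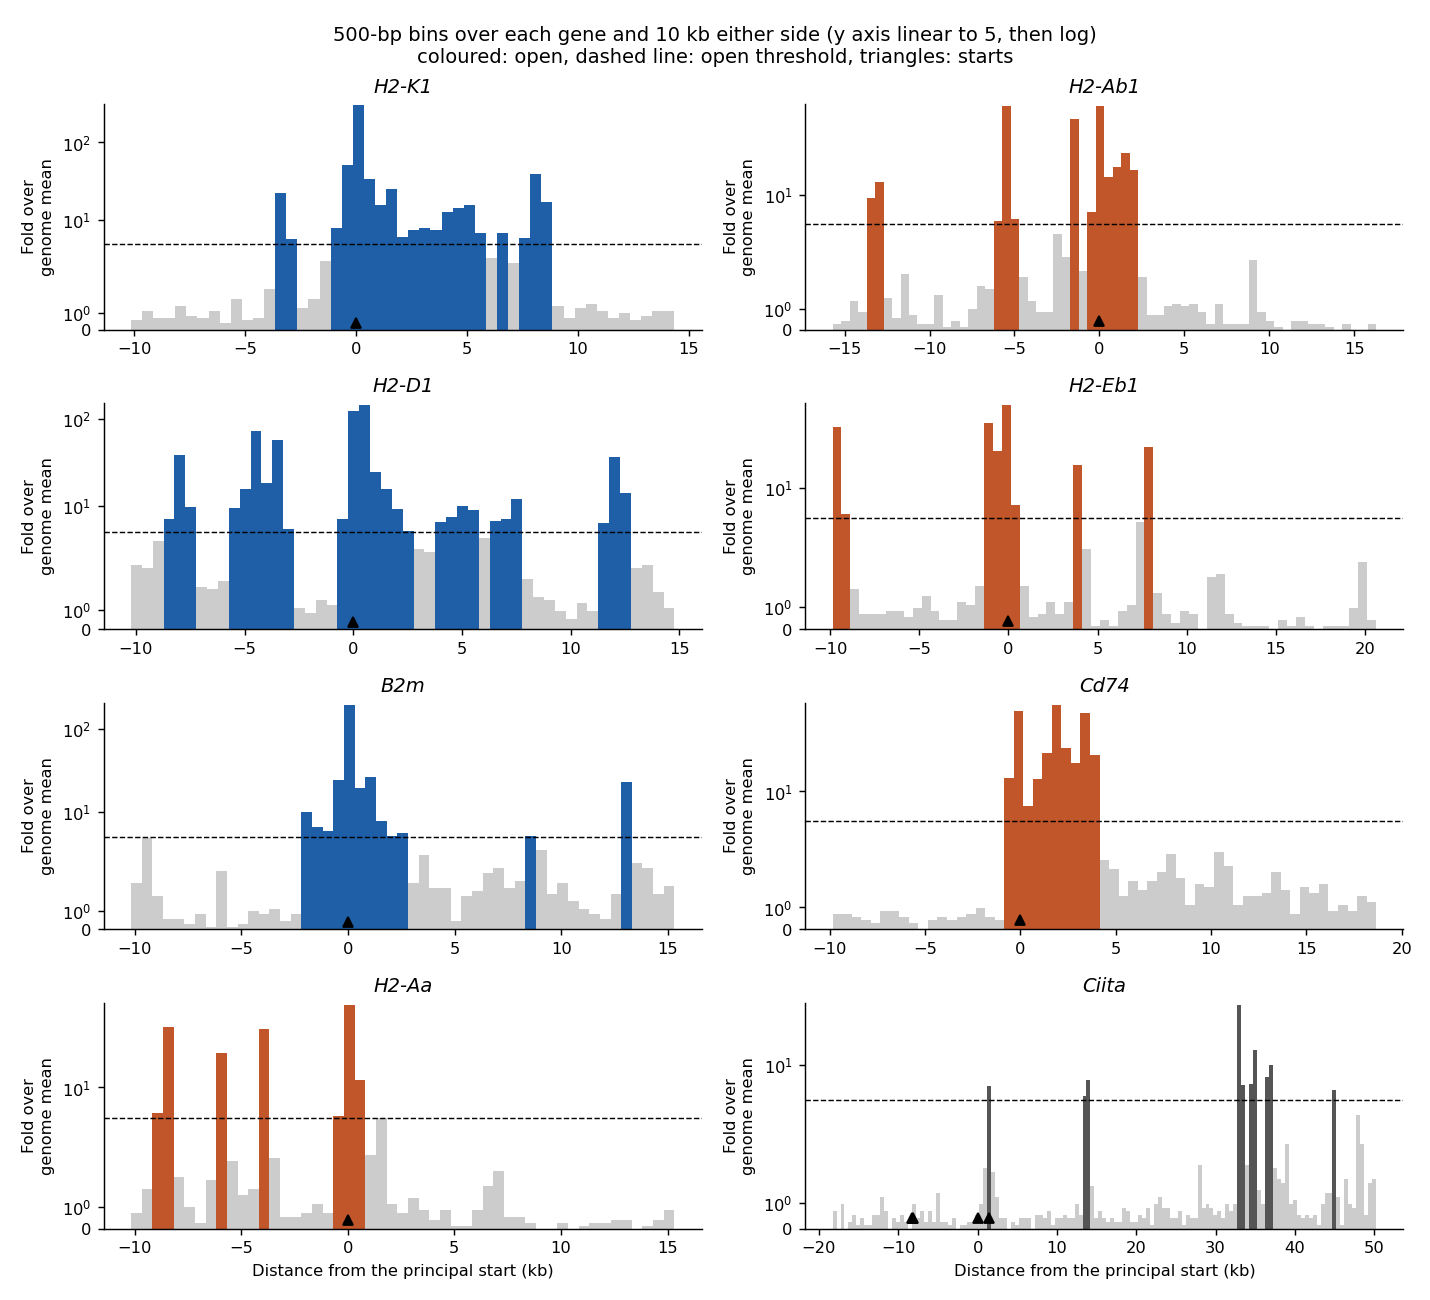
Fragments in 500-bp bins as fold over the genome mean (y axis, linear to 5 and logarithmic above, scaled for each gene) by distance from the principal start in kb (x axis) over each gene and 10 kb on either side. Coloured bins are open, the dashed line is the threshold of 5, and triangles mark the principal start, or the 4 start groups of *Ciita*. The highest bins of *H2-K1*, *B2m*, *H2-Aa*, *H2-Ab1* and *H2-Eb1* hold or lie at the start, while those of *Cd74* and *Ciita* lie downstream of it.

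Over the 8 loci, 103 of 502 distinct bins (20.5%) were open. The class I loci had 58 open bins of 150 (38.7%) and the class II loci 35 of 215 (16.3%). *H2-D1* had 26 of 50 and *H2-K1* 20 of 49, *B2m* 12 of 51, *H2-Ab1* 12 of 64, *Cd74* 10 of 57, *H2-Eb1* 8 of 61 and *H2-Aa* 7 of 51. These loci were chosen for their genes and hold promoters by construction, so a share above that of the genome is no finding about them. Bins of neighboring genes counted too: an open bin with 164 fragments in the *B2m* locus held the start of *Trim69*.

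Within the class I loci the start bins led. The start bin of *H2-K1* had 2183 fragments in 1482 cells, 301 times the genome mean, and that of *B2m* 1412 in 1082 cells, 195 times. In the *H2-K1* locus the bin upstream of the start bin followed with 369 fragments, and then a bin 8097 bp downstream of the start, beyond the end of the gene (chr17:33992001-33992500), with 286. *H2-D1* had 1032 fragments in the bin that covers the RefSeq start and 895 in the one with the GENCODE start. Upstream of *H2-D1*, a bin centered at -4480 bp (chr17:35258001-35258500) had 522 fragments in 462 cells and 72.0 times the genome mean, outside any protein-coding gene.

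Class II loci had strong bins away from the start. In *Cd74* the bin with the most fragments lay in intron 1, 1902 bp downstream of the start (chr18:60805501-60806000), with 559 fragments in 466 cells. The start bin followed with 483 in 389 cells, and another intron bin 3402 bp downstream had 458 in 373 cells. In *H2-Ab1* the start bin had 633 fragments in 552 cells, and a bin at -5459 bp (chr17:34257501-34258000), which holds the start of another annotated transcript of the gene, had nearly as many, 621 in 539 cells. Another *H2-Ab1* bin at -1459 bp had 457 fragments. *H2-Eb1* had 477 fragments in its start bin and 318 at -1117 bp (chr17:34304501-34305000), and 73.0% of the fragments of either bin were under 150 bp. Between *H2-Aa* and *H2-Eb1*, outside protein-coding genes, a bin at -8427 bp from *H2-Aa* and -9617 bp from *H2-Eb1* (chr17:34296001-34296500) had 289 fragments in 251 cells. It was the second highest bin of the *H2-Aa* locus, whose start bin had 487, and the third highest of the *H2-Eb1* locus. Another bin upstream of *H2-Aa*, at -3927 bp, had 280 fragments, 78.9% of them under 150 bp.

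The other genes of the pathway were taken from lists of related genes. Of the class I chains and relatives, all 8 genes besides the 3 above had an open promoter, as had 60.5% of all promoters. The highest after *H2-K1*, *H2-D1* and *B2m* was *H2-Q4* with 42.4 per kb per M, and the lowest were *Mr1* with 13.2, which presents vitamin B metabolites, *Cd1d1* with 9.24, which presents lipids, and *H2-T23* with 4.90. All 10 genes of class I peptide loading were open. The chaperone genes *Calr*, *Canx* and *Pdia3* had 107, 87.2 and 78.0 per kb per M. *Erap1*, which trims peptides, had 16.8, the immunoproteasome gene *Psmb10* 7.05 and the peptide transporter gene *Tap2* 3.66. *Tap1*, the other subunit of that transporter, had 48.8, and the immunoproteasome gene *Psmb9*, next to it in the genome, had 44.2, right above *B2m*.

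Of the class II chains and loading genes besides the 4 above, 5 of 9 were open, near the 60.5% of all promoters. *H2-DMa* had the highest density, 57.2 per kb per M, and its partner *H2-DMb1* had 14.7; together they make the H2-M molecule that exchanges peptides on class II. *H2-DMb1* was next below *H2-Aa* and *H2-Eb1* in the order of densities, within their intervals. At the low end, *H2-DMb2* had 0.835, *H2-Eb2* 0.781 and *March1*, whose product removes class II from the surface, no fragment at its annotated start, where 3 fragments would be a density of 0.0808 and the exact interval reaches 0.0993. *Ctss*, the protease that cuts the invariant chain, was also not open, with 33 fragments.

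Among the regulators, 11 of the 12 genes besides *Ciita* were open, against 60.5% of all promoters, and the exception was *Nlrc5*, the class I counterpart of *Ciita*, with 10 fragments or 0.269 per kb per M. *Nfya*, a subunit of NF-Y, had 155 per kb per M, *Creb1* 96.0 and *Nfyb* 73.6. Of the RFX complex, *Rfxank* had 59.0, *Rfxap* 47.4 and *Rfx5* 2.50, the last not far above the threshold. Of the interferon regulatory factors, *Irf2* had 52.8 and *Irf1* 21.8. *Irf8* had 718 fragments, as many as *H2-Ab1*. At their principal starts the transactivator genes of both classes stood lowest in their list, with 7 and 10 fragments, while the genes for the DNA-binding partners were open. The downstream start of *Ciita*, with 65 fragments or 1.75 per kb per M, would stand just below *Rfx5*. Of the 4 costimulation genes *Icosl* (15.6) and *Cd86* (3.26) were open, and *Cd40* (1.70) and *Cd80* (0.162) were not.

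**Figure D5:**
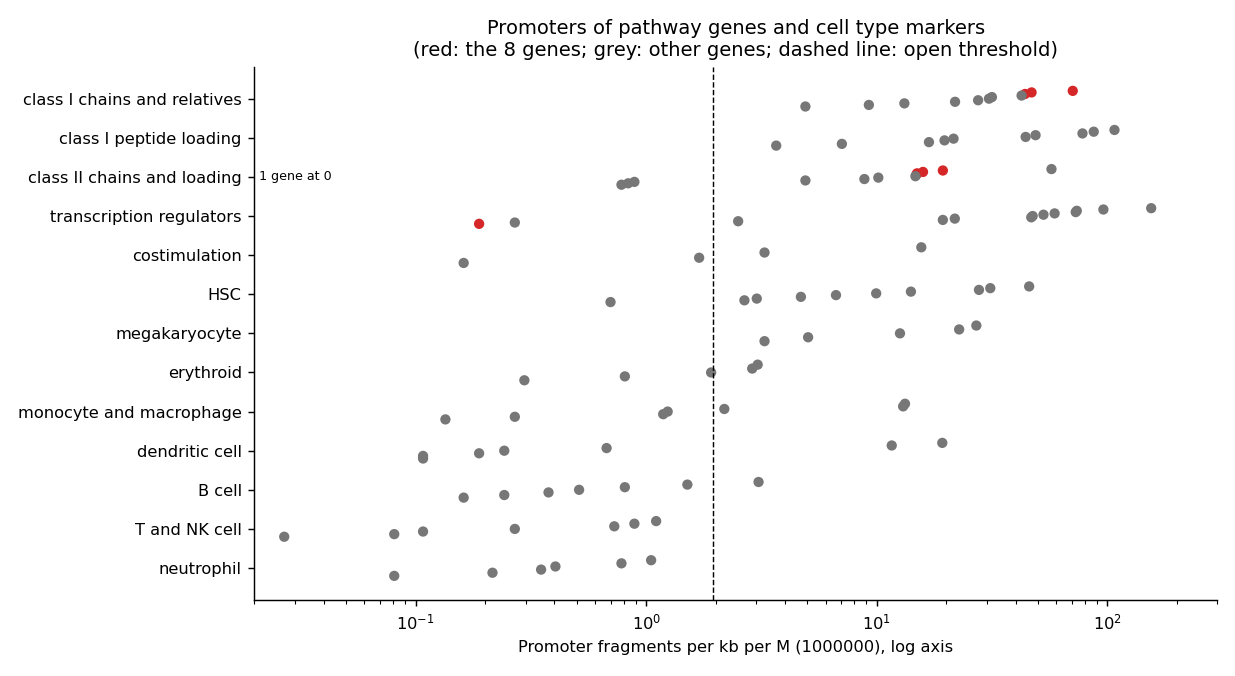
Promoter density in fragments per kb per M (x axis, log) of the genes of 5 pathway lists and 8 cell type marker lists (rows), with the 8 genes described here in red and the open threshold as a dashed line. *Ciita* and *Nlrc5* are the 2 regulators to the left of the line, and the markers of T and NK cells and neutrophils all lie to its left.

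In the order of promoter densities over these lists, the neighbors of each gene were read with their intervals. *H2-K1* stood between *Nfyc* (72.9), whose interval overlapped its own, and *Rfxank*, whose interval did not. *H2-D1* stood right below *Rfxap*, and *B2m* between *Psmb9* and *H2-Q4*, all with overlapping intervals. *H2-Ab1* stood beside *Irf8* and *Zbtb46* (19.2), and *Cd74* between *Erap1* and *Icosl*. *Ciita* stood beside *Clec9a* (0.188) and *Ms4a1* (0.162), a marker of conventional dendritic cells and one of B cells.

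Marker genes were used to check the cell type on the label and to look for cells that are known to carry class II. Against the 60.5% of all promoters that were open, 9 of 10 HSC markers were, among them *Hlf* with 45.8, *Meis1* with 31.0 and *Kit* with 27.7 per kb per M. *Slamf1*, which encodes the CD150 of the sort, had 2.67 and *Tek* 3.02, and *Ly6a*, whose product Sca-1 is part of the sort, had 0.700 at its annotated start. Of 7 B cell markers 1 was open, *Cd79b* with 3.07. *Pax5* had 1.51, *Cd79a* 0.808, and at the low end *Cd22* had 0.377, *Blk* 0.242 and *Ms4a1* 0.162. Of 7 dendritic cell markers *Zbtb46* and *Bst2* (11.6) were open, *Itgax* had 0.673, and *Clec9a*, *Xcr1* and *Cd209a* had 0.188, 0.108 and 0.108. Of 7 monocyte and macrophage markers 3 were open, among them *Cd68* (13.2) and *Lyz2* (2.18), and *Csf1r*, *Adgre1* and *Ly6c2* had 1.18, 0.269 and 0.135.

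The marker lists of the cell types known for class II were thus mixed, with 1 of 7 B cell, 2 of 7 dendritic cell and 3 of 7 monocyte and macrophage markers open, and *Zbtb46* as high as *H2-Ab1*. The LSK gate of the sort is lineage-negative and so is meant to remove such cells, and their part in the class II values was not tested. None of the 7 T and NK cell markers was open, from 1.10 for *Klrb1c*, 0.889 for *Lck* and 0.727 for *Cd3g* down to 0.108 for *Cd8a*, 0.0808 for *Cd3e* and 0.0269 for *Ncr1*. None of the 6 neutrophil markers was, from 1.05 for *Mpo*, 0.781 for *Elane* and 0.404 for *Ngp* down to 0.350 for *Camp*, 0.215 for *S100a8* and 0.0808 for *S100a9*. Of the 5 erythroid markers 2 were open, *Epor* (3.04) among them, and *Klf1* (1.91), *Slc4a1* (0.808) and *Hbb-bs* (0.296) were not. The 5 megakaryocyte markers were all open, against 60.5% of all promoters, with *Itga2b* at 27.01, *Pf4* at 22.8, *Gp9* at 12.6, *Vwf* at 5.04 and *Gp1bb* at 3.26.

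Barcodes that were not called as cells were read for comparison. Promoters held 20.4% of their fragments, against 37.0% in cells, so these barcodes carry promoter signal and are no signal-free background. They held 3525361 fragments on the same chromosomes, and the 8 genes were counted there in the same way. *H2-K1* had 38.6 per kb per M (32.4-45.6) in them, so its density in cells was 1.83 times higher (1.54-2.19). The ratios of cells over these barcodes were 1.99 for *H2-D1*, 1.67 for *B2m*, 2.38 for *H2-Aa*, 1.55 for *H2-Ab1*, 2.11 for *H2-Eb1* and 1.75 for *Cd74*, all with intervals above 1. Over all promoters the ratio was 1.81, within the interval of each of these 7 genes. At the principal start of *Ciita* these barcodes had no fragment, where 3 fragments would be 0.851 per kb per M and the exact interval reaches 1.05.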

How the data were processed

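The counts of fragments were deposited by the authors per barcode and as positions of unique ATAC fragments, made with Cell Ranger ARC 2.0.2 on mm10. They are not normalized. RNA counts per gene and ADTs were not analysed here. Cells were called barcodes with more than 3000 fragments in peaks. Limits on blacklisted regions, mitochondrial RNA, nucleosome signal and TSS enrichment were not applied, and doublets were kept. Each fragment was counted once, at its midpoint. *Ciita* starts within 100 bp were joined. The sources used here do not say whether fragment ends were shifted for the transposase, which would move them by a few bases. Python 3.11.15, NumPy 2.4.6, pandas 2.3.3, SciPy 1.17.1 and matplotlib 3.10.9 were used, and the counting steps were tested on simulated data.

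The genes, lists and motifs were chosen with earlier results of these data known. Genes named are the 8 genes in full, the 3 highest and 3 lowest of each list with their neighbors in order, and the 3 strongest bins of each locus. Others (Tap1, Ctss, Irf1, Irf2, Trim69 and Dexi) were named after their values were seen. Of 106 listed entries, Ifi30 was not matched. Some other listed genes are not reported here by name. Promoters of B2m, H2-K1, H2-Aa, H2-Eb1 and H2-D1 were in the RefSeq promoter table (GRCm38.p6). For H2-Ab1, Cd74 and Ciita it was not used here. With 1 library there is no replicate, so no test and no pairing was made. Depth was 37137164 fragments in 3108 cells, and intervals cover counting error only.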

Additional observations from a re-analysis of the deposited data

How the results depend on the processing

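Class I stood above class II, Ciita below both, and 7 of 8 promoters stayed open, under each alternative run for them. In these, 1 choice was changed at a time, and Ciita was counted at its principal or most upstream start. Its downstream start passed the open threshold in windows of 250 bp, at 6.62 times the genome mean. The class ratio was 3.86 with fragments under 150 bp, 2.96 with windows of 250 bp and 2.94 with windows of 1000 bp on either side, and 3.28 to 3.43 under the other 7. The shares of cells with a class I and a class II promoter fragment were 71.1% and 43.3% over all called cells, 83.4% and 53.3% above 5000 fragments in peaks, 68.0% and 33.7% with fragments under 150 bp, 76.4% and 44.0% with fragments of at least 2 read pairs, 72.4% and 44.8% in windows of 250 bp, 84.1% and 58.4% in windows of 1000 bp, and 37.6% and 16.9% when thinned to 3000 fragments. The Ciita start windows held 4.23% of the locus with fragments under 150 bp, 4.04% in windows of 250 bp and 7.80% in windows of 1000 bp. Open bins numbered 138 at 3 times the genome mean, 66 with fragments under 150 bp, 59 at 10 times the genome mean and 54 without flanks, where fewer bins are counted. Of the 73 gene densities recomputed, 24 left their counting interval. The causes were not tested. No paired analysis was possible because there is 1 library of each kind and no test. Depth limits the principal start of Ciita, which rests on 7 fragments, and the choice of start moves its count to 65.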
